A study of Mus musculus with 28 samples.

Results

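Pramel6 and Pramel7 are neighbouring mouse genes of the PRAME-like family. The pair was taken by name, as 2 rows of the 24982 distinct gene names in each of 3 tables of nascent RNA from mouse embryonic stem cells (mESCs). The pair was chosen by its known role in the naive state and selected on the steady-state RPKM of Pramel6, which was lower in the libraries labelled EloA null than in WT. The steady-state levels of the pair are therefore a description without a test, and Pramel6 and Pramel7 were tested only in the recovery libraries. The choice was not made on the recovery values, but it was made with earlier results of these data known. The recovery libraries come from the same WT and EloA null lines, so they are no independent check of a difference between these lines.

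The 12 libraries came from CCE28 mESCs, either wild-type (WT) or lacking Elongin A (EloA), the large subunit of the Elongin complex. All cells were depleted of feeder fibroblasts and had been kept in medium with LIF and the MEK and GSK3 inhibitors known as 2i. Bru-seq was used to measure nascent RNA: in this method, 5-bromouridine (BrU) enters newly made RNA that is then immunopurified and sequenced. At steady state cells received 2 mM BrU for 10 min without any drug. For recovery, both genotypes were held in 1 µM flavopiridol (FP), which blocks the kinase P-TEFb and with it productive elongation, for 60 min, and BrU was present for the first 5 min or 10 min after FP was washed out. Each genotype had 2 libraries per condition, and no library is shared between conditions. The paper describes its Bru-seq duplicates as independent experiments. Neither it nor the labels say whether replicates were separate cultures, so what the spread between them covers is not known.

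The EloA null line was obtained from another laboratory, and whether it is 1 clone is not given in the sources used here. A passage of the labels names the cells CJ7 instead of CCE28. The first steady-state library titled EloA null has wild type in its genotype field, and it was grouped by its title. Nascent Eloa was not lower in the libraries labelled EloA null. Its RPKM (reads per kilobase of counted length, scaled to library size) was 1.18 and 1.16 in WT and 1.96 and 1.89 in the others at steady state. At 5 min it was 2.96 and 2.82 against 5.14 and 6.25, and at 10 min 4.65 and 6.51 against 8.74 and 8.93. Which part of the gene the null allele removes is not given in the sources used here, so this readout does not check the label, and groups are named by label. The paper examined EloA protein in both lines by immunoblot. At the ribosomal RNA gene Rn45s it reports an EloA chromatin signal (CUT&RUN) close to background in null cells. Neither checks the label of a single Bru-seq library. The 10 stem cell markers examined, Pou5f1, Sox2 and Nanog among them, all had a mean above 0.5 RPKM in at least 1 genotype of every table. The summed RPKM of 12 fibroblast markers was at most 4.57 in a library, with no marker above 1.78.

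PRAME-like proteins are leucine-rich-repeat proteins, and several act as substrate receptors of Cullin-RING ubiquitin ligases built on CUL2. PRAMEL7 is known as a factor of the naive state that is induced by the LIF-STAT3 pathway and lowers the level of UHRF1, the partner of the maintenance DNA methyltransferase DNMT1. PRAMEL6 is a relative encoded next to it, also known from naive mESCs. CUL2 ligases are bridged to their receptors by Elongin B and Elongin C, the small subunits that EloA also binds.

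The pair lies on chromosome 2 of GRCm38, the assembly behind mm10, inside an array of olfactory receptor genes. Pramel7 occupies chr2:87489088-87492418 on the minus strand in the RefSeq annotation, with 1 transcript, and Pramel6 occupies chr2:87506565-87510865 on the plus strand, with 4 transcripts. The genes thus point away from each other. Their RefSeq start sites are 14.1 kb apart. GENCODE M21 adds transcripts of Pramel7 that begin further upstream, at 87497093, which leaves 9.47 kb between the outermost start sites. No other gene is annotated between them in RefSeq. The coding sequences are 1458 bases (Pramel6) and 1440 bases (Pramel7) long and identical at 59.0% of 1418 aligned bases, with 0 stretches of 30 bases in common.

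**Figure D1:**
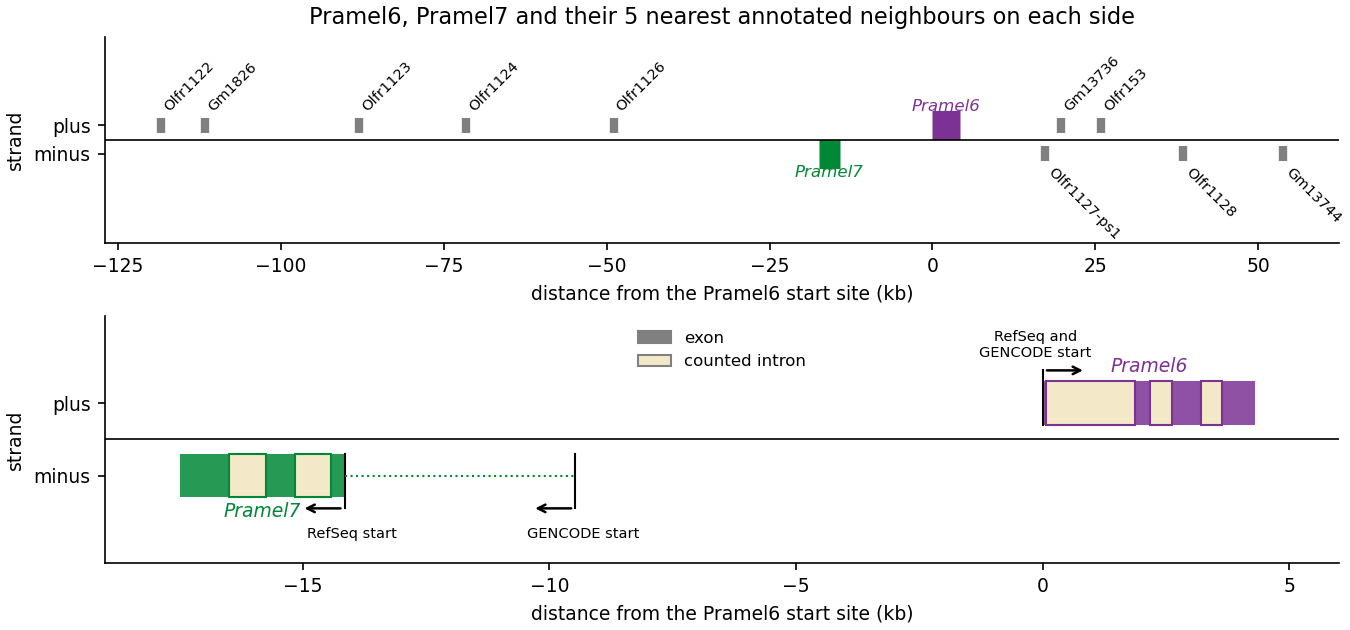
Map of the locus, with distance from the Pramel6 start site in kb on the horizontal axis and the strand on the vertical axis. The upper panel shows the 5 nearest annotated neighbours on each side as grey bars of fixed width. The lower panel shows exons (solid), the counted introns, whose summed length scaled the RPKM (pale), and the annotated start sites (arrows). The start sites lie 14.1 kb apart in RefSeq and 9.47 kb apart with the upstream GENCODE start of Pramel7 (dotted line).

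The 250 bases before the outermost start site of each gene are shown because the nascent RNA of both genes was lower in the libraries labelled EloA null. The sequence before the RefSeq start of Pramel7 was not searched here. The windows were read from the RefSeq sequence of GRCm38, in the direction of transcription, and capitals mark the motifs found.
Pramel6, chr2:87506315-87506564: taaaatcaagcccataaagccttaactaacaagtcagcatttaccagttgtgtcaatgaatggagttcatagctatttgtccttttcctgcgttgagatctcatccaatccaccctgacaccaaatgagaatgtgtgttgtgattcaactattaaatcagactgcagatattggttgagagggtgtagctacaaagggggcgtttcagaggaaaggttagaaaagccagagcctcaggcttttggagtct
Pramel7, chr2:87497094-87497343: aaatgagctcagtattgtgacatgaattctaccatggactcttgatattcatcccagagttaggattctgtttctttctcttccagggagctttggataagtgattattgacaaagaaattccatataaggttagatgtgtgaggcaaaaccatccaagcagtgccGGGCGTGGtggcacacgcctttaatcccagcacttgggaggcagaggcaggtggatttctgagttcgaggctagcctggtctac
Both strands were searched for TTCNNNGAA (the STAT motif), TATAAA (the TATA box), CCNCNCCC (a KLF-type motif), AAGGTCA (the ESRRB motif), ATGCAAAT (the octamer) and CACGTG (the E-box). The Pramel6 window held none of them. The Pramel7 window held 1, the KLF-type motif, here as its reverse complement GGGCGTGG, from 84 to 77 bases before the start, and all 8 of its bases lie in sequence masked as a repeat. Among 32851 RefSeq windows of the same length, 45.9% held the KLF-type motif, 12.4% the TATA box, 7.02% the STAT motif, 6.02% the E-box, 4.08% the ESRRB motif and 1.60% the octamer. The windows had 42% and 46% G or C and 2 and 4 CpG dinucleotides, below the median of 52.4% and 6 over all windows. Repeats made up 5.2% of the Pramel6 window and 50.8% of the Pramel7 window.

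The RPKM of both genes was scaled to the length of their introns. Their RPKM came out as whole reads when only introns were counted as length, extended by 1 base at both ends, which gave 2675 counted bases for Pramel6 and 1475 for Pramel7. This shows the length used, not where reads were counted, and the paper states that reads were counted over whole RefSeq genes. The introns used as length are called counted introns here. Of all 32-base stretches in these introns, 94.7% and 93.8% occur once in the genome, so that few reads from them could have been lost or shared. Library sizes ran from 9857527 to 28547355 reads, and the 5-min libraries were the smallest. Beside each value below, the 95% exact Poisson interval covers counting error only.

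At steady state, nascent RNA of Pramel6 was 59.5% lower in the libraries labelled EloA null than in WT, and that of Pramel7 was 25.1% lower. Pramel6 stood at 3.60 RPKM in the first WT library (230 reads, interval 3.15 to 4.09) and 3.41 in the second (255 reads, 3.01 to 3.86). In the libraries labelled EloA null it stood at 1.41 (87 reads, 1.13 to 1.73) and 1.43 (107 reads, 1.17 to 1.73). Both WT libraries were thus far above both others, by at least 2.39-fold, and replicates differed by at most 1.05-fold. Of all 11347 genes tested, 21.4% were lower without overlap in the same way. The means were 3.51 ± 0.130 and 1.42 ± 0.0179 RPKM (SD, n = 2 each), a ratio of 0.405 and a difference of -1.25 on the log2(RPKM + 0.1) scale. Because these are bulk libraries, fewer cells that transcribe the gene and less RNA per cell cannot be told apart.

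Pramel7 stood at 10.4 RPKM in the first WT library (365 reads, 9.32 to 11.5) and 7.65 in the second (315 reads, 6.83 to 8.54). It stood at 6.94 (237 reads, 6.09 to 7.89) and 6.55 (270 reads, 5.79 to 7.38) in the libraries labelled EloA null. The groups did not overlap, but the second WT library exceeded the first EloA null library by only 1.10-fold, within counting error, and the WT libraries differed from each other by 1.35-fold. The means were 9.0 ± 1.91 and 6.75 ± 0.280 RPKM (SD, n = 2 each), a ratio of 0.749 and a difference of -0.40 on the log2 scale. Without the first WT library the difference was -0.18, and without the second it was -0.61, so its size rested on which WT library was used. In WT, Pramel7 was among the more strongly transcribed genes, with 524 and 788 genes above it, while 2627 and 2682 genes were above Pramel6. In the libraries labelled EloA null, 7189 and 7092 genes were above Pramel6, and 1014 and 1088 above Pramel7.

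**Figure D2:**
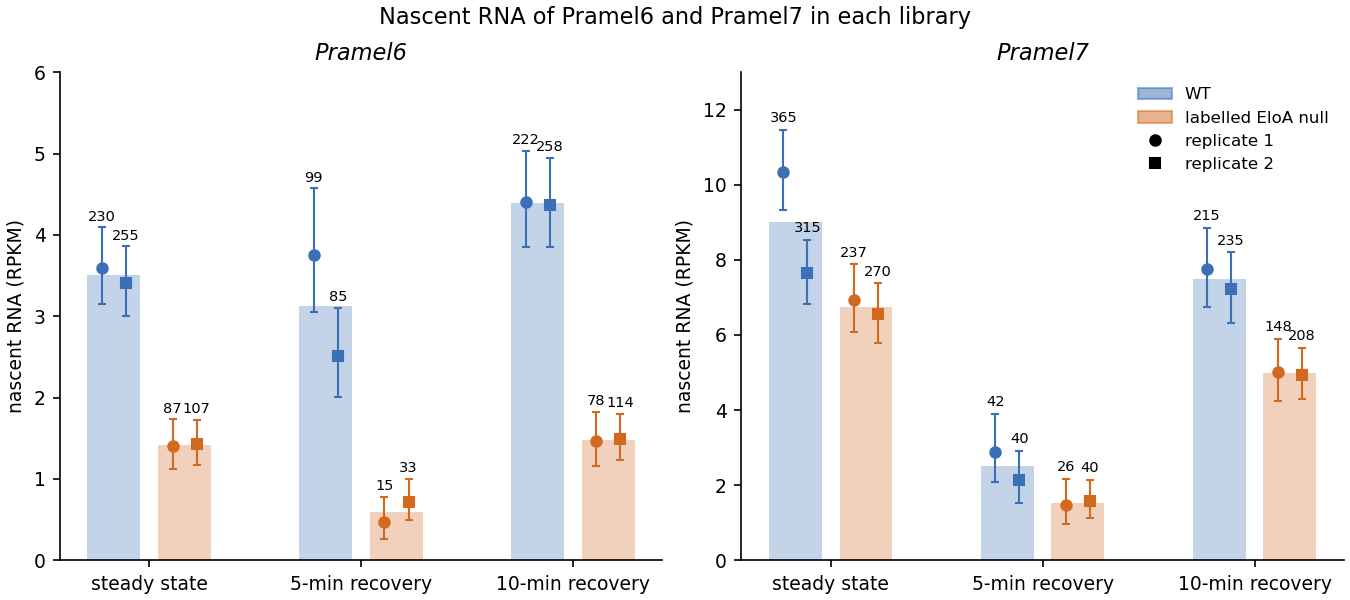
Nascent RNA (RPKM) of Pramel6 and Pramel7 in each of the 12 libraries, with WT in blue and libraries labelled EloA null in orange. Points are libraries, bars their means, whiskers 95% Poisson intervals and numbers the reads recovered from the RPKM. Both genes were lower in both EloA null libraries of every condition, as were 10.1% of the genes tested in all 3, and the gap of Pramel6 was widest at 5 min, at 3.75 and 2.51 against 0.471 and 0.714.

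During recovery from FP, the levels of the pair were compared between genotypes at each time. The comparison includes any difference already present at steady state, so it does not show whether the pair resumed transcription alike. At 5 min, Pramel6 was at 3.75 RPKM (99 reads, 3.05 to 4.57) and 2.51 RPKM (85 reads, 2.00 to 3.10) in WT. It was at 0.471 (15 reads, 0.263 to 0.776) and 0.714 (33 reads, 0.492 to 1.00) in the libraries labelled EloA null. The groups were separated by 3.51-fold at the closest, where 25% of all genes tested were lower without overlap, while replicates differed by 1.5-fold in WT and 1.52-fold in the others. The means were 3.13 ± 0.881 and 0.592 ± 0.172 RPKM (SD, n = 2 each), a 5.29-fold difference. On the log2 scale it was -2.22 (standard error 0.27, unadjusted 95% interval -2.91 to -1.53), with a limma adjusted p of 0.117 over 8985 genes, which misses the threshold of 0.05. Over the alternatives the adjusted p ran from 0.00189 to 0.616, and 3 of 12 alternatives passed.

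At 10 min, Pramel6 was at 4.41 RPKM (222 reads, 3.85 to 5.03) and 4.37 RPKM (258 reads, 3.86 to 4.94) in WT. It was at 1.46 (78 reads, 1.15 to 1.82) and 1.49 (114 reads, 1.23 to 1.79) in the libraries labelled EloA null. Replicates were within 1.02-fold of each other here, and the groups lay 2.93-fold apart at the closest, where 21.8% of all genes tested were lower without overlap. The means were 4.39 ± 0.0261 and 1.48 ± 0.0229 RPKM (SD, n = 2 each), a 2.97-fold difference. The log2 difference was -1.51 (standard error 0.09, unadjusted 95% interval -1.75 to -1.27), with a limma adjusted p of 0.0618 over 10241 genes. No gene at 10 min had a smaller adjusted p, but the adjustment can give several genes the same value, so this does not rank Pramel6 first. Over the alternatives 4 passed, the smallest limma adjusted p being 0.0107.

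Pramel7 was also lower in the libraries labelled EloA null at both times, with smaller differences. At 5 min it was at 2.89 RPKM (42 reads, 2.08 to 3.90) and 2.14 RPKM (40 reads, 1.53 to 2.92) in WT, and at 1.48 (26 reads, 0.966 to 2.17) and 1.57 (40 reads, 1.12 to 2.14) in the libraries labelled EloA null. The groups did not overlap, but the intervals of the single libraries did. The log2 difference was -0.67 (standard error 0.19, unadjusted 95% interval -1.16 to -0.19, limma adjusted p = 0.449), from means of 2.51 ± 0.529 and 1.52 ± 0.0641 RPKM (SD, n = 2 each). At 10 min it was at 7.74 RPKM (215 reads, 6.74 to 8.85) and 7.22 RPKM (235 reads, 6.33 to 8.21) in WT. It was at 5.03 (148 reads, 4.25 to 5.90) and 4.94 (208 reads, 4.29 to 5.66) in the libraries labelled EloA null, below WT in both. The log2 difference was -0.58 (standard error 0.09, unadjusted 95% interval -0.83 to -0.33, limma adjusted p = 0.108), a 1.5-fold difference. Over the alternatives Pramel7 passed in 0 cases at either time, with adjusted p from 0.0562 to 0.775 at 5 min and 0.0815 to 0.546 at 10 min.

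These values stand against a wide background. With limma, 0% of the tested genes passed an adjusted p of 0.05 in each of the 3 tables, while an unadjusted p under 0.05 was reached by 18.4% at steady state, 9.42% at 5 min and 20.5% at 10 min. A mean more than 1.5-fold lower in the libraries labelled EloA null was found for 2.1% of 11347 genes at steady state, 6.72% at 5 min and 3.01% at 10 min. Pramel6 was past this limit in all 3 tables and Pramel7 at both recovery times. Past 1.5-fold and without overlap were 1.5%, 4.91% and 2.25% of genes. The median log2 difference of all tested genes was 0.03, -0.06 and 0.06.

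Ranked by the ratio of mean RPKM among genes with 20 or more reads on average, a limit set once the values had been seen, Pramel6 was the lowest of 7548 genes at 5 min and number 4 from below of 8844 at 10 min. At steady state it was number 5 of 9827 genes, which the choice of the gene fixes in part. Pramel7 was number 184, 122 and 121 from below at steady state, 5 min and 10 min. Without that limit on reads, ordered by the log2 difference over all tested genes, Pramel6 was number 78 of 11347 at steady state, 65 of 8985 at 5 min and 72 of 10241 at 10 min, and Pramel7 was number 406, 375 and 278. Of 8217 genes tested in all 3 tables, 25 (0.304%) were more than 1.5-fold lower without overlap in each, Pramel6 and its family member Pramef8 among them. Lower without overlap in each of the 3 tables, by any amount, were 826 of these genes (10.1%), Pramel6 and Pramel7 among them. No gene but Pramel6 had ratios as low as its own in all 3. These joint counts include steady state, so the choice of the gene fixes the place of Pramel6 in them in part. At both recovery times, without steady state, 84 of these genes (1.02%) were more than 1.5-fold lower without overlap, Pramel6 and Pramel7 among them.

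**Figure D3:**
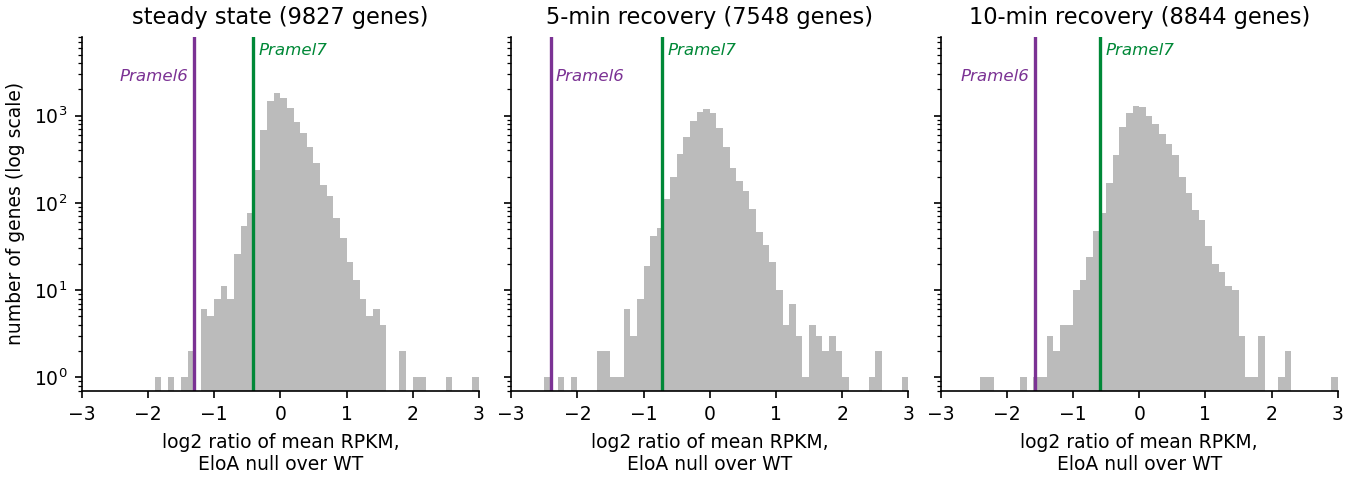
Distribution of the log2 ratio of mean RPKM (EloA null over WT, horizontal axis) over genes with 20 or more reads on average in each condition, with the number of genes on a log scale. Bars are bins of 0.1, and values beyond 3 are in the end bins. Lines mark Pramel6, the lowest of 7548 genes at 5 min, and Pramel7, which was number 122 there.

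The difference between the 5-min and the 10-min effect of genotype was tested in 1 limma fit over all 12 libraries, a test added after the values were seen. For Pramel6 the 5-min effect minus the 10-min effect was -0.71 on the log2 scale (standard error 0.28, limma unadjusted p = 0.0350, adjusted p = 0.996 over 8362 genes). For Pramel7 the difference was -0.10 (standard error 0.24, limma adjusted p = 0.996). A larger deficit at 5 min was thus not established for either gene, and the 5-min values of Pramel6 in the libraries labelled EloA null rested on 15 and 33 reads.

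Pramel6 was lower relative to Pramel7 in the libraries labelled EloA null, a comparison within each library that does not depend on its scaling. The ratio of Pramel6 to Pramel7 RPKM, both per counted length, was 0.347 and 0.446 in WT and 0.202 and 0.219 in the libraries labelled EloA null at steady state. At 5 min it was 1.30 and 1.17 against 0.318 and 0.455. At 10 min it was 0.569 and 0.605 against 0.291 and 0.302. The genotypes did not overlap in any condition, and in WT at 5 min Pramel6 exceeded Pramel7, in contrast to the other 10 libraries. The mean difference on the log2(RPKM + 0.1) scale was -1.55 at 5 min and -0.93 at 10 min, each with a two-sided exact permutation p of 0.333, the smallest that 2 against 2 libraries allow. At steady state it was -0.85, given without a test.

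The FP block left the pair at different levels after release. In WT, Pramel6 at 5 min was at 0.893 of its steady-state mean and Pramel7 at 0.279. The median of 1102 genes of 2 to 6 kb was 0.802, and the middle 50% ran from 0.468 to 1.26. Pramel7 thus lay below that range and Pramel6 within it. The counted introns of Pramel6 lie between 0.064 and 3.64 kb from its start site. Those of Pramel7 lie between 0.283 and 2.34 kb from its RefSeq start but between 4.96 and 7.01 kb from the upstream GENCODE start, and which start was in use was not tested. At 10 min the levels were 1.25 for Pramel6 and 0.831 for Pramel7 against a median of 1.25. In the libraries labelled EloA null, Pramel6 was at 0.418 and Pramel7 at 0.226 at 5 min, against a median of 0.652 over 1190 genes of that length. At 10 min they were at 1.04 and 0.739 against 1.30. The scaling between tables is not given in the sources used here, so these ratios between tables are descriptions and only the order of genes within a table is independent of that scaling.

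**Figure D4:**
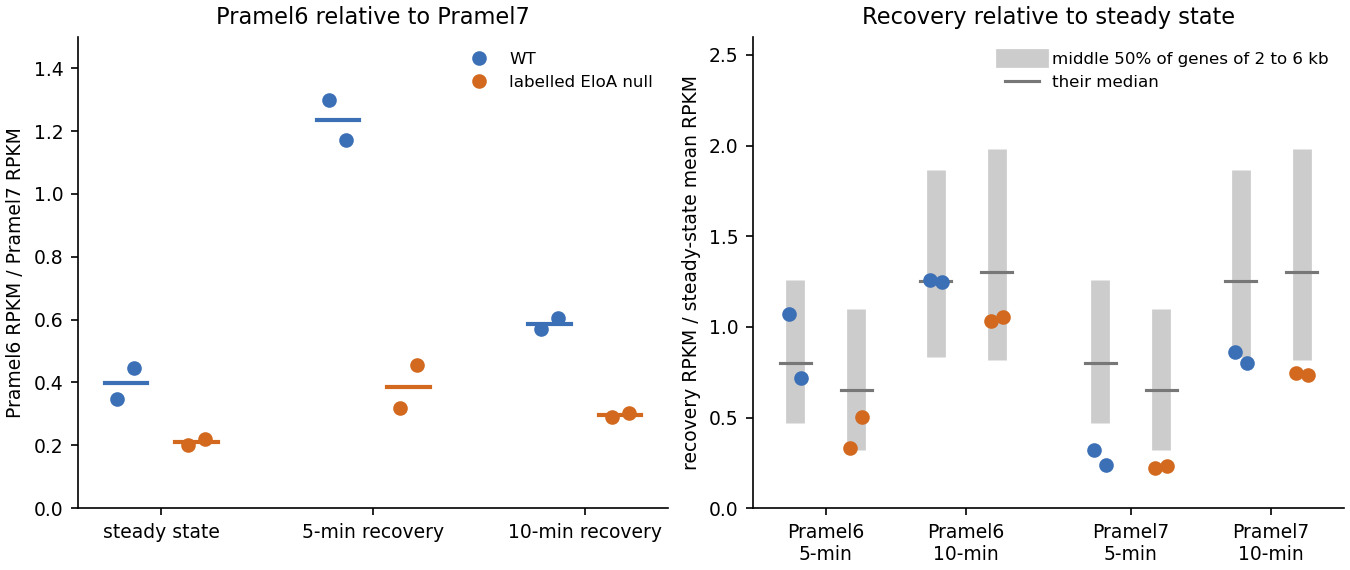
Left, ratio of Pramel6 to Pramel7 RPKM in each library (points) with the group mean (line). Right, RPKM at recovery divided by the steady-state mean of the same genotype, per library (points), with the middle 50% (grey bar) and median (line) of genes of 2 to 6 kb. In WT at 5 min Pramel6 was at 0.893 and Pramel7 at 0.279.

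Among the relatives of the pair, Pramef8 was also lower in the libraries labelled EloA null. Besides the pair, 15 genes of the PRAME family were looked up, and 3 were above the RPKM limit at steady state and at 10 min and 2 at 5 min. The number past limma's adjusted p was 0 in each table. In each, 1 had an unadjusted limma p under 0.05, as did 18.4%, 9.42% and 20.5% of all tested genes. Pramef8 was at 1.69 and 1.57 RPKM in WT and 1.03 and 0.959 in the libraries labelled EloA null at steady state. It was at 1.80 and 1.9 against 0.744 and 0.967 at 5 min, and at 2.61 and 3.04 against 1.49 and 1.99 at 10 min. WT was above the other group in all 3 tables, as it was for 10.1% of the genes tested in all 3. The ratios of Pramef8 were 0.612, 0.462 and 0.615, with limma adjusted p of 0.106, 0.215 and 0.171. Pramef12, at 2.29 and 1.89 against 2.13 and 2.02 RPKM at steady state, had ratios of 0.993, 0.714 and 0.889. Pramef17 had ratios of 0.841 at steady state and 1.10 at 10 min. The median log2 difference of these relatives was -0.18 at steady state, -0.73 at 5 min (2 genes) and -0.16 at 10 min, against 0.03, -0.06 and 0.06 over all tested genes. Oog1, Oog2, Oog3, Oog4, Prame and Pramel4 were at 0.0167 RPKM or less in every library.

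The ligase that PRAMEL7 serves and its target axis were followed by a list of 18 genes. Of these, 18 were tested at steady state, 16 at 5 min and 17 at 10 min, and 0 passed limma's adjusted p in any table. At an unadjusted limma p under 0.05 were 2, 2 and 4, against 18.4%, 9.42% and 20.5% of all tested genes. Cul2, the scaffold of the ligase, had ratios of 1.06, 0.990 and 1.04. Its RPKM at steady state was 4.03 and 3.93 in WT and 4.30 and 4.12 in the libraries labelled EloA null. Uhrf1, which encodes the known target of PRAMEL7, had ratios of 1.15, 0.743 and 0.879 with limma adjusted p of 0.458, 0.704 and 0.429. Dnmt1 stood at ratios of 1.06, 0.800 and 1.02. Of the genes encoding the small Elongin subunits, Elob had ratios of 1.18, 1.29 and 1.37 and Eloc of 0.912, 0.872 and 0.923.

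Past 1.5-fold were Eloa itself, described above, with ratios of 1.65, 1.97 and 1.58 (limma adjusted p of 0.0999, 0.249 and 0.176), and Uhrf2, the relative of Uhrf1. Uhrf2 was at 3.67 and 3.90 RPKM against 2.94 and 2.69 at steady state, a ratio of 0.745. At 5 min it was at 0.994 and 0.889 against 0.451 and 0.560, a ratio of 0.537 (limma adjusted p = 0.404). At 10 min it was at 2.84 and 2.6 against 1.69 and 1.71, a ratio of 0.624 (limma adjusted p = 0.103). It was lower without overlap in each table, as were 10.1% of the genes tested in all 3. The median log2 difference of the list was 0.04, -0.18 and 0.03.

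**Figure D5:**
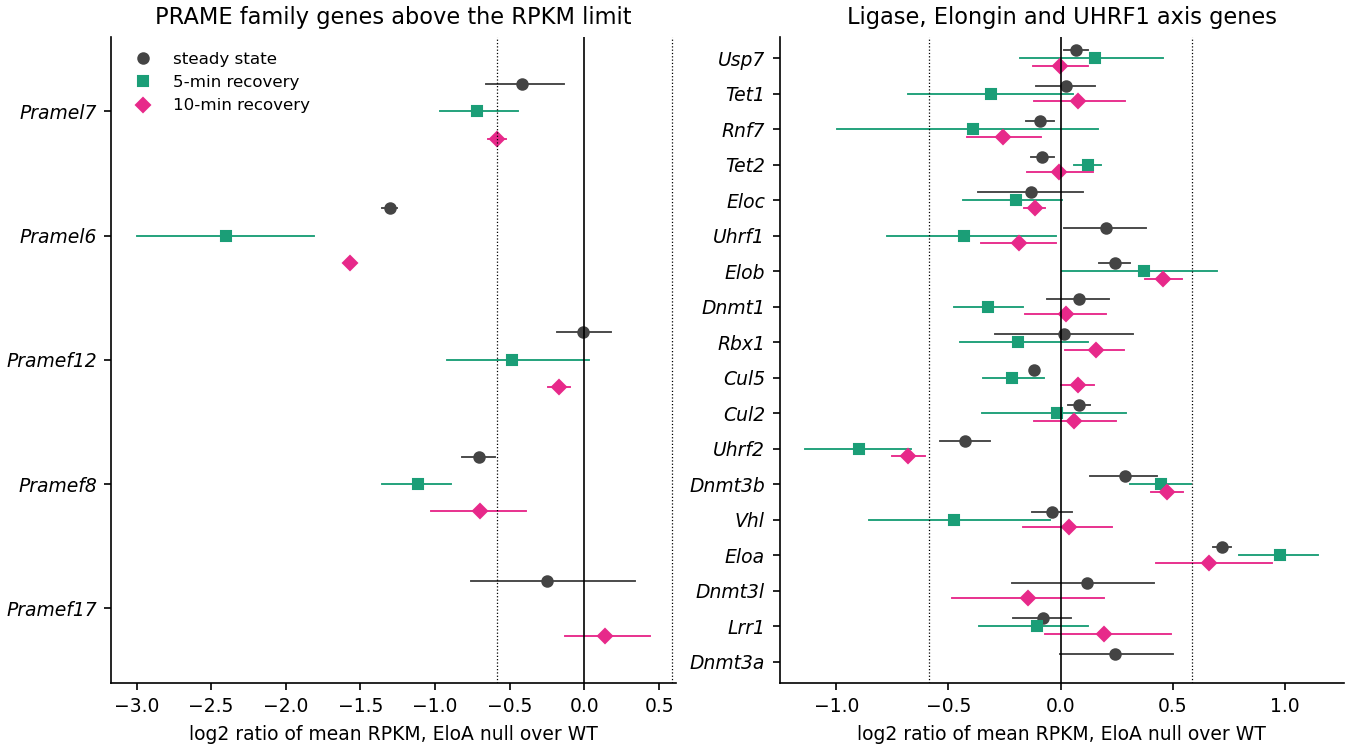
Log2 ratio of mean RPKM (EloA null over WT) of the PRAME family genes (left) and of the ligase, Elongin and UHRF1 axis genes (right) that were above the RPKM limit, ordered by WT level. Symbols are conditions, horizontal lines span the lowest and highest ratio of single libraries, and dotted lines mark 1.5-fold. Pramel6 and Pramef8 were more than 1.5-fold lower without overlap in all 3 conditions, as were 0.304% of the genes tested in all 3. Cul2 was at ratios of 1.06, 0.990 and 1.04.

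Other genes of the naive state were closer to WT than Pramel6. Of 18 such genes, 16 were tested in each table. More than 1.5-fold lower in those labelled EloA null were 0 in each table, where 2.1%, 6.72% and 3.01% of all tested genes were. At these shares a count of 0 among 16 genes says little. More than 1.5-fold higher without overlap were 3, 1 and 2 of them, where 6.24%, 4.36% and 8.43% of all tested genes were. Among the highest by level, Zfp42 had ratios of 0.918, 0.801 and 0.820, Zfp57 of 0.993, 0.848 and 0.894, Tbx3 of 1.06, 0.872 and 0.905 and Nanog of 1.21, 0.741 and 0.979. Those past 1.5-fold upward were Klf2 (1.59 at steady state), Nr0b1 (1.59 at steady state and 1.76 at 10 min) and Tdh (1.74, 1.59 and 1.51). With limma 0 of the 16 passed in any table. At an unadjusted limma p under 0.05 were 3, 2 and 3 of them, against 18.4%, 9.42% and 20.5% of all tested genes. The smallest limma adjusted p of Klf2, Nr0b1 and Tdh was 0.0934, for Nr0b1 at 10 min. The median log2 difference of the list was 0.12, -0.20 and -0.04, against 0.03, -0.06 and 0.06 over all tested genes.

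The LIF-STAT3 pathway, through which PRAMEL7 is known to be induced, was followed by 12 genes. Of these, 11, 11 and 10 were tested and 0 passed limma's adjusted p. At an unadjusted limma p under 0.05 were 2, 3 and 1, against 18.4%, 9.42% and 20.5% of all tested genes. Stat3 itself had ratios of 1.02, 0.748 and 0.945, and Lifr, the LIF receptor, of 1.04, 0.881 and 0.940. Klf4, Klf5 and Tfcp2l1, targets of the pathway, had ratios from 0.904 to 1.12 at steady state. They ranged from 0.697 to 0.829 at 5 min and from 0.847 to 0.980 at 10 min. Pim1 and Bcl3, also on the list, had ratios of 1.24, 1.06 and 1.12 (Pim1) and 1.27, 0.942 and 1.28 (Bcl3). Socs3, the feedback inhibitor, was lower at 5 min, at 0.909 and 2.26 RPKM in WT against 0.150 and 0.623 (ratio 0.244, limma adjusted p = 0.500), and had ratios of 1.15 and 0.875 in the other tables. Pim3 was higher at 10 min, with a ratio of 1.5 and a limma adjusted p of 0.287. The median log2 difference of the list was 0.05, -0.34 and -0.08.

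Summed levels of markers of 2-cell-like cells and of fibroblasts were also lower in the libraries labelled EloA null, although single markers differed in direction. Of those tested, 0 passed limma's adjusted p. At 5 min 1 of each list had an unadjusted limma p under 0.05, as did 9.42% of all tested genes. The summed RPKM of 14 genes of 2-cell-like cells, the rare mESCs that resemble the early embryo, was 0.507 to 0.748 in WT and 0.204 to 0.243 in the libraries labelled EloA null at steady state. It was 1.10 to 1.30 against 0.280 to 0.333 at 5 min and 0.678 to 0.848 against 0.507 to 0.536 at 10 min. Of these genes 0 were above the RPKM limit at steady state and at 10 min, 1 was at 5 min (Usp17la, at 0.641 and 0.578 against 0.0279 and 0.135), and 5, 6 and 5 were at 0 in every library of a table. The summed RPKM of the 12 fibroblast markers was 2.34 to 2.59 in WT against 1.88 to 2.23 at steady state, 2.67 to 3.03 against 1.60 to 2.05 at 5 min and 3.58 to 4.57 against 2.58 to 3.25 at 10 min. Of these, Lox ranged from 0.421 to 1.78 RPKM over the 12 libraries, Col1a1 from 0.385 to 1.44 and Col1a2 from 0.141 to 0.542, while Dcn and Lum were at 0.0308 RPKM or less. At 5 min, Lox (ratio 0.602) and Col1a1 (0.636) were the 2 fibroblast markers tested. Both were more than 1.5-fold lower without overlap, as were 4.91% of all tested genes. At steady state and at 10 min 0 were. The part of 2-cell-like cells or fibroblasts in the values of Pramel6 and Pramel7 was not tested. Of 10 genes of the primed state, 4, 3 and 3 were tested. Their median log2 difference was 0.33, 0.39 and 0.45, against 0.03, -0.06 and 0.06 over all tested genes. With limma 0 passed the adjusted p. At an unadjusted limma p under 0.05 were 1, 0 and 2, against 18.4%, 9.42% and 20.5% of all tested genes. Otx2 had ratios of 1.35, 1.08 and 1.40, and Dnmt3b of 1.22, 1.37 and 1.39. Dnmt3a, tested only at steady state, had a ratio of 1.18, and Zic2 had 1.48 at 5 min. Zic2 was more than 1.5-fold higher without overlap at steady state (ratio 1.54) and at 10 min (1.52), as were 6.24% and 8.43% of all tested genes. More than 1.5-fold lower were 0, against 2.1%, 6.72% and 3.01% of all tested genes.

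The neighbours of the pair in the olfactory receptor array were at or close to 0, apart from a pair on the far side of Pramel6. Olfr1122, Olfr1123, Olfr1124 and Olfr1126, up to 100 kb from Pramel7, did not exceed 0.0853 RPKM in any library. Olfr153, a gene of 1 exon 21.2 kb beyond Pramel6, had mean RPKM of 2.69 in WT and 2.38 in the libraries labelled EloA null at steady state, a ratio of 0.883. Its ratio was 0.975 at 5 min and 1.24 at 10 min. Olfr1128, 33.7 kb beyond Pramel6, had ratios of 1.14, 0.367 and 1.04, from mean RPKM of 0.881, 0.909 and 1.37 in WT. On the side of Pramel7, the nearest gene above 0.5 RPKM in WT at steady state was Tnks1bp1, 2416 kb away, with ratios of 1.11, 0.746 and 0.801. On the side of Pramel6, genes above this limit were not looked up beyond Olfr1128.

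The genes most like each member across the 12 libraries were found by Pearson's r of log2(RPKM + 0.1), centred on the mean of each table, over 5794 genes with a mean RPKM above 1 in every table. All points share the libraries and their depth, and with 6 libraries of each genotype a steady genotype difference of any size gives a high r. For Pramel6 they were Atad5 (r = 0.994), Paxip1 (0.993), Mre11a (0.992), Atp2a2 (0.986) and Gsto1 (0.985). For Pramel7 they were Ndel1 (0.976), Fam53c (0.964), Tspan3 (0.962), Arf2 (0.959) and Prdx6 (0.957). Pramel7 was number 68 in the order of Pramel6 and Pramel6 number 20 in that of Pramel7, at r = 0.940. Among these genes only Gsto1 had a difference near that of Pramel6, with mean RPKM of 8.80 against 4.36 at steady state, 7.47 against 2.50 at 5 min and 16.2 against 6.76 at 10 min.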

How the data were processed

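Bru-seq was done in 12 libraries, 2 per genotype and condition, and the other 16 samples, of chromatin profiling, were left out. The authors aligned reads to mm10 and dm3 with Bowtie2 2.3.4.3, kept unique alignments with SAMtools, counted reads in RefSeq genes with featureCounts 1.6.1 and deposited edgeR RPKM values, 1 table per condition. Use of strand in the counting and scaling between tables are not given in the sources used here. Columns of means in the tables were checked and not used.

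Reads behind each RPKM value were recovered from gene lengths. With summed introns plus 1 exon base on each side, 98.7% to 99.0% of values of genes with 1 transcript came out whole within 0.02 reads, against 3.11% to 4.00% with the gene span. Recovered reads of Pramel6 and Pramel7 were within 7.36e-06 of whole numbers. Of 24984 rows, 24420 matched a RefSeq symbol. Intervals are exact Poisson intervals, which cover counting error only.

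Genes with a mean above 0.5 RPKM in WT or EloA null were tested within each table by limma 3.58.1 (R 4.3.3) on log2(RPKM + 0.1), which understates the change of low genes, with an intensity trend and Benjamini-Hochberg adjustment. The scripts were tested on simulated data. Ratios of Pramel6 to Pramel7 were compared by an exact permutation test. Members and gene lists were chosen with earlier results of these data known. Named genes were the members, list genes above 0.5 RPKM (up to 4 per list by steady-state level, and those past 1.5-fold without overlap), the 5 nearest genes on each side and the 5 genes most like each member. Genes named outside this rule were chosen after their values were seen. Sequences came from RefSeq GRCm38.p6, start sites also from GENCODE M21, read by scripts in Python 3.11.15 with Biopython 1.88. Protein sequences were not used here.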

Additional observations from a re-analysis of the deposited data

How the results depend on the processing

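Nascent RNA of Pramel6 and Pramel7 was lower in the libraries labelled EloA null under all 72 alternatives run for their differences (pseudocounts of 1 and 0.01, no filter, centring on the median, quantile normalization, the replicate block, 1 fit over all 12 libraries, robust variance estimates and leaving out each library). Most of these could not change the direction. The filter, the replicate block, the 12-library fit and the robust estimates leave the difference itself unchanged. Since the groups did not overlap, neither a pseudocount nor leaving out 1 library can reverse it. Only centring and quantile normalization could have done so. The block cannot alter the difference in the ratio of Pramel6 to Pramel7 either. Of 129 alternatives for all results, 91 gave the same call or a value within the replicate spread and 0 reversed. Limits: 2 libraries per group, as few as 15 reads at 5 min, and scaling between tables that is not stated. The replicate number is only a number in the labels. Deviations of libraries with the same number correlated at r = 0.101, 0.119 and 0.103 in the 3 tables. With the replicate block, Pramel6 passed at 5 min (limma adjusted p = 0.00394), 128 genes passed at 5 min instead of 0, and no other call changed. Pramel6 at 5 min also passed with all 12 libraries in 1 fit (-2.22, limma adjusted p = 0.00189) and with robust variance estimates (0.0390). At 10 min it passed with centring (-1.61, limma adjusted p = 0.0310), quantile normalization (-1.60, 0.0441), all 12 libraries (-1.51, 0.0107) and robust variance estimates (0.0346). The cause was not tested, except that the 12-library fit has more residual degrees of freedom.

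At steady state the log2 difference of Pramel6 was -0.90 with a pseudocount of 1, -1.30 with 0.01, and -1.31 with centring and with quantile normalization. The difference in the ratio of Pramel6 to Pramel7 with a pseudocount of 1 was -0.54, -0.89 and -0.62 at steady state, 5 min and 10 min. Genes past limma's adjusted p, 0 in each table, numbered 132 (steady state), 532 (5 min) and 264 (10 min) with all 12 libraries and 81, 29 and 26 with robust variance estimates. At 10 min they numbered 5 with a pseudocount of 1, 12 with centring and 6 with quantile normalization. Leaving out 1 library gave -1.28 to -1.21 for Pramel6 and -0.61 to -0.18 for Pramel7 at steady state, the last without WT replicate 1. It gave ratio differences of -1.03 to -0.67 at steady state and -1.76 to -1.33 at 5 min, and 0 to 90 genes at 5 min (61 without WT replicate 1, 64 without WT replicate 2, 90 without EloA null replicate 1) and 0 to 81 at 10 min (49 without WT replicate 2, 70 and 81 without EloA null replicates 1 and 2). In these fits the lone library was assumed to vary like the other group.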
